A study of Mus musculus with 15 samples.

Results

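The 31 genes described here are the mouse semaphorins (20 genes), their plexin receptors (9 genes) and the neuropilin co-receptors (2 genes), chosen by family name from the 19934 genes that had a transcript cluster of their own on the array. All 31 had such a cluster among the 28361 of the table. For each gene, the cluster annotated to that gene alone with the highest mean log2 intensity over the 15 arrays was used, a choice that arose for 2 genes, Sema4d and Sema6b. Whole-lobe RNA was measured in 3 groups of 5 male C57BL/6N mice, with 1 Affymetrix array per mouse. Control mice breathed synthetic air spontaneously for 6 hours, air ventilated mice were ventilated with synthetic air for 6 hours, and 80 ppm H2S ventilated mice received synthetic air with 80 ppm hydrogen sulfide (H2S) through the ventilator for the same time. The ventilator was set to 12 ml/kg tidal volume and 2 cmH2O of positive end-expiratory pressure in both groups. Anaesthesia with ketamine and acepromazine is described for the animals of all groups. The tissue was the inferior right lobe, frozen after bronchoalveolar lavage, and the labels name no altered genotype. No group at a lower tidal volume was analysed here, so ventilation as such and ventilation at this volume cannot be told apart.

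Semaphorins are secreted or membrane-bound guidance proteins, first known for repelling growing axons. They bind plexins, whose cytoplasmic part acts on small GTPases and thereby loosens integrin adhesion and remodels actin. Most secreted class 3 semaphorins need a neuropilin to reach a plexin, and neuropilins also bind vascular endothelial growth factor (VEGF). In the lung the families are known from vessel and airway branching, endothelial barrier control and immune cell traffic.

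Sema5a and Plxna2 carried the largest increases among ligands and receptors, and Sema3a and Plxnd1 the largest decreases. The stretch before their RefSeq transcription starts is shown so that the promoters of genes that moved in opposite directions can be read side by side. Each holds 250 bases of build GRCm38.p6, at chr15:32244563-32244812 on the plus strand for Sema5a, chr1:194619579-194619828 on the plus strand for Plxna2, chr5:13396534-13396783 on the plus strand for Sema3a and chr6:115995006-115995255 on the minus strand for Plxnd1. All are written 5′ to 3′, and capitals mark each match to 1 of the 10 motifs searched.
Sema5a: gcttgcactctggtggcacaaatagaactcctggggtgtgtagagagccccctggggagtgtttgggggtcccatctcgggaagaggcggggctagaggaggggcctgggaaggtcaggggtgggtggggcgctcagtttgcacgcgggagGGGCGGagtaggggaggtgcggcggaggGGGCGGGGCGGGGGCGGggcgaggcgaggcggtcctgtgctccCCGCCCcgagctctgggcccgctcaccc
Plxna2: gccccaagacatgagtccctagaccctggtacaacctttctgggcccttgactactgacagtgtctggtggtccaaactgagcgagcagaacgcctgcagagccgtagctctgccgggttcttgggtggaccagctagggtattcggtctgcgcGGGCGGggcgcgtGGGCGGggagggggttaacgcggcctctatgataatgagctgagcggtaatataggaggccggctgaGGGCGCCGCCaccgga
Sema3a: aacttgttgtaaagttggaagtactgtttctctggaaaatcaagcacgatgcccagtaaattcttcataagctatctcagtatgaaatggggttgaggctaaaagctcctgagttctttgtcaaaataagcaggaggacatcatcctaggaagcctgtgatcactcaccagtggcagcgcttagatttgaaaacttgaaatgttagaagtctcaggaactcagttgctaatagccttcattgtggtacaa
Plxnd1: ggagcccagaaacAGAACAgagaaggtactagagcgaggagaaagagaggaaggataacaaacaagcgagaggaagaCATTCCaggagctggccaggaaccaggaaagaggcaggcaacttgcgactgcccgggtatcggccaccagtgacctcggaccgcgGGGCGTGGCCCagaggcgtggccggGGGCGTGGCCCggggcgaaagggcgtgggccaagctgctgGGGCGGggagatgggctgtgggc
The Sema5a stretch held 5 matches to the GC box GGGCGG, read on either strand, and was 72.0% GC. In Plxna2 there were 2 GC boxes and 1 match to the NF-kB motif (GGG, 5 bases of any kind, then CC, or its complement), at 62.8% GC. The Plxnd1 stretch, at 64.8% GC, held 1 GC box, 4 overlapping matches to the NF-kB letters, 1 glucocorticoid receptor motif TGTTCT and 1 TEAD motif GGAATG. Sema3a, at 40.8% GC, held none of the 10 motifs.

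Promoters were found for 26 of the 31 genes (37 promoters, as some genes have several starts), out of 32851 in the RefSeq table. Counted per promoter, the GC box stood in 27 of the 37, against 32.7% of all promoters, and the NF-kB letters in 24, against 45.8%. The remaining motifs, searched on both strands, were the HIF core ACGTG (7 of the 37, 16.6% of all promoters), TGTTCT (7, 16.1%), the antioxidant response core TGACNNNGC (5, 10.2%), the AP-1 site TGANTCA (3, 6.75%), GGAATG (3, 12.6%), the E-box CACGTG, which contains the HIF core (2, 6.02%), the CRE TGACGTCA (0, 1.55%) and the heat shock letters GAANNTTC (0, 6.69%). The median GC content was 64.0% over the member promoters, from 40.8% to 78.4%, and 52.4% over all promoters. Counted per gene, the GC box stood in at least 1 promoter of 21 of the 26 genes. Of the genes called with H2S below, it stood in all 4 that were higher and in 5 of the 7 lower ones with a promoter here. These counts are near the share of all 26 genes and set neither direction apart. These matches describe letters and are not shown to be bound.

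Changes are given as log2 fold changes with their standard error (SE), from limma fitted to the log2 intensities of all 28361 transcript clusters, and a gene was called where the Benjamini-Hochberg adjusted p over all clusters was under 0.05. With air ventilation 8 of the 31 genes were called (25.8%), against 3.44% of all clusters. Of these 4 were higher and 4 lower, against 1.56% and 1.89% of all clusters. The count was 5 when control mouse 7_9 or 6_5, or air ventilated mouse 11_6, 35_26 or 6_2, was left out. With H2S ventilation 12 were called (38.7%), against 7.86% of all clusters, 4 of them higher and 8 lower, against 3.92% and 3.93%. Most members gave bright clusters, with 26 of the 31 genes at or above the median intensity of all clusters. Of these 26 genes 8 were called with air and 12 with H2S, against 5.8% and 12.7% of the clusters at or above that median. Both comparisons use the same 5 control mice, and 8 genes were called in both. The families were chosen with earlier results of these data known, so the shares are a description and no unbiased contrast with all clusters.

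Most family members that were not called lay slightly below control. The log2 change was negative for 24 of 31 genes with air and for 25 with H2S, with medians of −0.14 and −0.15, against 0.01 and 0.00 over all clusters. No overlap between the ventilated and the control mice was seen for 11 genes in each comparison, against 5.55% of all clusters with air and 8.2% with H2S. The thresholds of the study were p not above 0.005, adjusted p not above 0.1 and effect size not below 1.7, with CyberT p values. Here they were applied to limma p values and to the fold change, so the calls need not match those of the study. This called Sema5a and Plxna2 higher and Sema3a and Plxnd1 lower in each comparison, against 0.959% and 1.45% of all clusters. Plxna2 lay only just above the fold limit. Sema3a, Sema5a and Plxnd1 also stand in the lists the study drew from these same arrays, which is therefore no independent evidence.

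**Figure D1:**
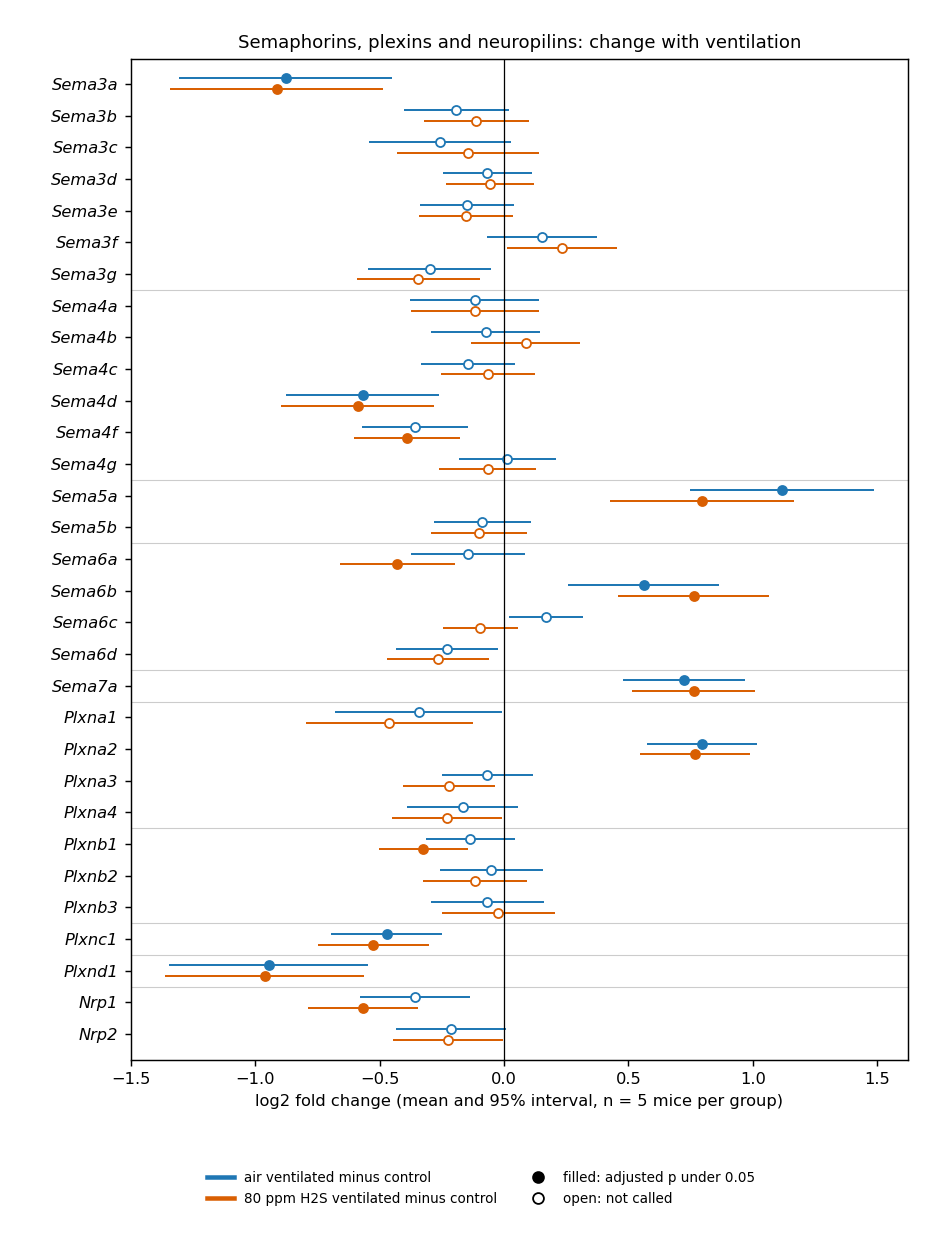
Log2 fold change of each of the 31 genes against control, with 95% intervals, for air ventilated (blue) and 80 ppm H2S ventilated (orange) mice, with filled points for adjusted p under 0.05 and grey lines between classes. Sema5a, Sema6b, Sema7a and Plxna2 lie to the right of 0, Plxnd1 and Sema3a farthest to the left, and the blue and orange intervals of each gene overlap.

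Among the ligands, 3 semaphorins rose in both ventilated groups, and each belongs to a different class. Sema5a, a transmembrane semaphorin with thrombospondin repeats that can attract or repel cells, had intensities of 625, 655, 722, 904 and 1028 in control, 1228, 1458, 1835, 1999 and 2010.1 in air ventilated and 1030.0, 1219.6, 1348, 1543 and 1665 in H2S ventilated mice. Every ventilated mouse lay above every control mouse, and the highest control and the lowest H2S mouse nearly met. The rise with air was 1.12 (SE 0.17, 2.17-fold, limma adjusted p = 0.00305), and with H2S it was 0.80 (SE 0.17, 1.74-fold, adjusted p = 0.00874). Sema5b, the other class 5 member, was below the median intensity of all clusters and was not called, at −0.09 and −0.10.

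Sema7a is held to the membrane by a lipid anchor and signals to leukocytes through integrins and plexin C1. Its intensity was 1176, 1417, 1485, 1486 and 1535 in control, 1832, 2277, 2475, 2535 and 2637 in air ventilated and 1993, 2309, 2368, 2559.8 and 2843 in H2S ventilated mice. The groups did not overlap with control, and the ventilated groups covered much the same range. Sema7a rose with air by 0.72 (SE 0.11, adjusted p = 0.00327, limma) and with H2S by 0.76 (SE 0.11, adjusted p = 0.000983).

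Sema6b is a transmembrane ligand of the A plexins. Its intensity was 273, 329, 334, 342 and 353 in control, 389.5, 426, 448, 495 and 688 in air ventilated and 476, 479, 536, 615 and 676 in H2S ventilated mice. All ventilated mice exceeded all controls, and 1 air ventilated mouse stood well above its group. The rise with air was 0.56 (SE 0.14, adjusted p = 0.037, limma), and with H2S it was 0.76 (SE 0.14, adjusted p = 0.00343). The call with air was kept in only 7 of the 15 fits that each left out 1 mouse. In 5 of these 15 fits that mouse was an H2S mouse, outside this comparison. The air call was lost whichever control mouse was left out, and without air ventilated mouse 11_6, 35_26 or 6_2. It was also lost where only control and air ventilated mice were fitted (adjusted p = 0.0595, limma). A second cluster annotated to Sema6b holds identical values (largest difference 0) and gives no separate check.

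Of the 7 secreted class 3 semaphorins only Sema3a was called. Sema3a, the classical repellent of axons and of endothelial cells, had intensities of 749, 767, 775, 1061 and 1202 in control, 318, 465, 478, 613 and 625 in air ventilated and 380.5, 391, 430.1, 601 and 621 in H2S ventilated mice. No ventilated mouse reached the lowest control. Sema3a fell with air by 0.88 (SE 0.20, 1.84-fold lower, adjusted p = 0.0213, limma) and with H2S by 0.91 (SE 0.20, 1.88-fold lower, adjusted p = 0.00941). The air call was kept in 10 of 15 fits without 1 mouse, with limma adjusted p from 0.0138 to 0.0686. All losses came from leaving out a compared mouse, control 7_9 or 6_5 or air ventilated 11_6, 35_26 or 6_2. The call was also lost with runs of 4 label numbers as a replicate block (adjusted p = 0.0535). In bulk tissue, fewer cells of a type and less RNA per cell cannot be told apart, here and below.

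The other 6 class 3 ligands had changes between −0.34 (Sema3g with H2S, adjusted p = 0.0802, limma) and 0.23 (Sema3f with H2S, adjusted p = 0.204). Sema3d, Sema3a, Sema3e and Sema3c lie in this order on chromosome 5 of the RefSeq annotation, with 0, 3 and 15 coding genes between neighbours, and Sema3a alone of the 4 was called. Sema3e, the ligand that binds plexin D1 without a neuropilin, was at −0.15 in both comparisons (adjusted p = 0.521 with air and 0.37 with H2S). Sema3f and Sema3c, both known to act through neuropilin 2, were at 0.15 and −0.26 with air and at 0.23 and −0.15 with H2S, none of them called.

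Class 4 semaphorins are membrane ligands, several of them made by lymphocytes and dendritic cells. Sema4d (CD100), which is shed from the cell surface and binds plexin B1 and, on B cells, CD72, had intensities of 414, 420.2, 425, 519 and 571 in control, 266, 269, 317, 350.3 and 384 in air ventilated and 226, 296, 329, 358 and 361 in H2S ventilated mice. The ventilated mice lay below all controls. The decrease with air was −0.57 (SE 0.14, adjusted p = 0.0371, limma), and with H2S it was −0.59 (SE 0.14, adjusted p = 0.0177). A second Sema4d cluster, dimmer over the 15 arrays, was at −0.05 (adjusted p = 0.898) and −0.12 (adjusted p = 0.5), so the clusters of this gene disagree. The air call was kept in 6 of 15 fits without 1 mouse. It was lost without control mouse 13_25, 5_1, 7_9 or 6_5, or air ventilated mouse 11_6, 12_10, 35_26 or 6_2. Leaving out H2S mouse 27_28, outside this comparison, also lost it.

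Sema4f, another class 4 member, was called with H2S only. Its intensity was 213, 225, 244, 284 and 294 in control, 180.1, 186, 197, 206 and 208 in air ventilated and 169.6, 178, 194, 194 and 223 in H2S ventilated mice. The air ventilated mice lay below all controls, whereas 1 H2S mouse passed the lowest control. Sema4f was lower by −0.39 (SE 0.10, adjusted p = 0.0227, limma) with H2S and stood at −0.36 (SE 0.10, adjusted p = 0.062) with air, where 6 of the other settings called it. The H2S call was kept in 11 of 15 fits without 1 mouse and lost without control mouse 12_21 or 5_1 or H2S mouse 9_12 or 4_8 (adjusted p up to 0.0583). It was also lost where only control and H2S mice were fitted (adjusted p = 0.0594). Sema4a, Sema4b, Sema4c and Sema4g, of which Sema4a is a costimulator of T cells, were not called and lay between −0.15 and 0.09.

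Sema6a, a class 6 ligand of plexins A2 and A4, was also called with H2S only. Its intensity was 2298, 2393, 2396, 2418 and 2426 in control, 1766, 2107, 2267, 2347 and 2363 in air ventilated and 1458, 1664, 1719.5, 1838 and 2277 in H2S ventilated mice. The control values were tight, and the H2S mice all lay below them while the air ventilated mice overlapped with them. Sema6a fell by 0.43 (SE 0.11, adjusted p = 0.0199, limma) with H2S, and stood at −0.14 (SE 0.11, adjusted p = 0.657) with air. Sema6d, a ligand of plexin A1 in heart and immune cells, was at −0.23 with air and −0.27 with H2S, neither called. Leaving out H2S mouse 9_12 took the adjusted p of Sema6a to 0.0509.

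**Figure D2:**
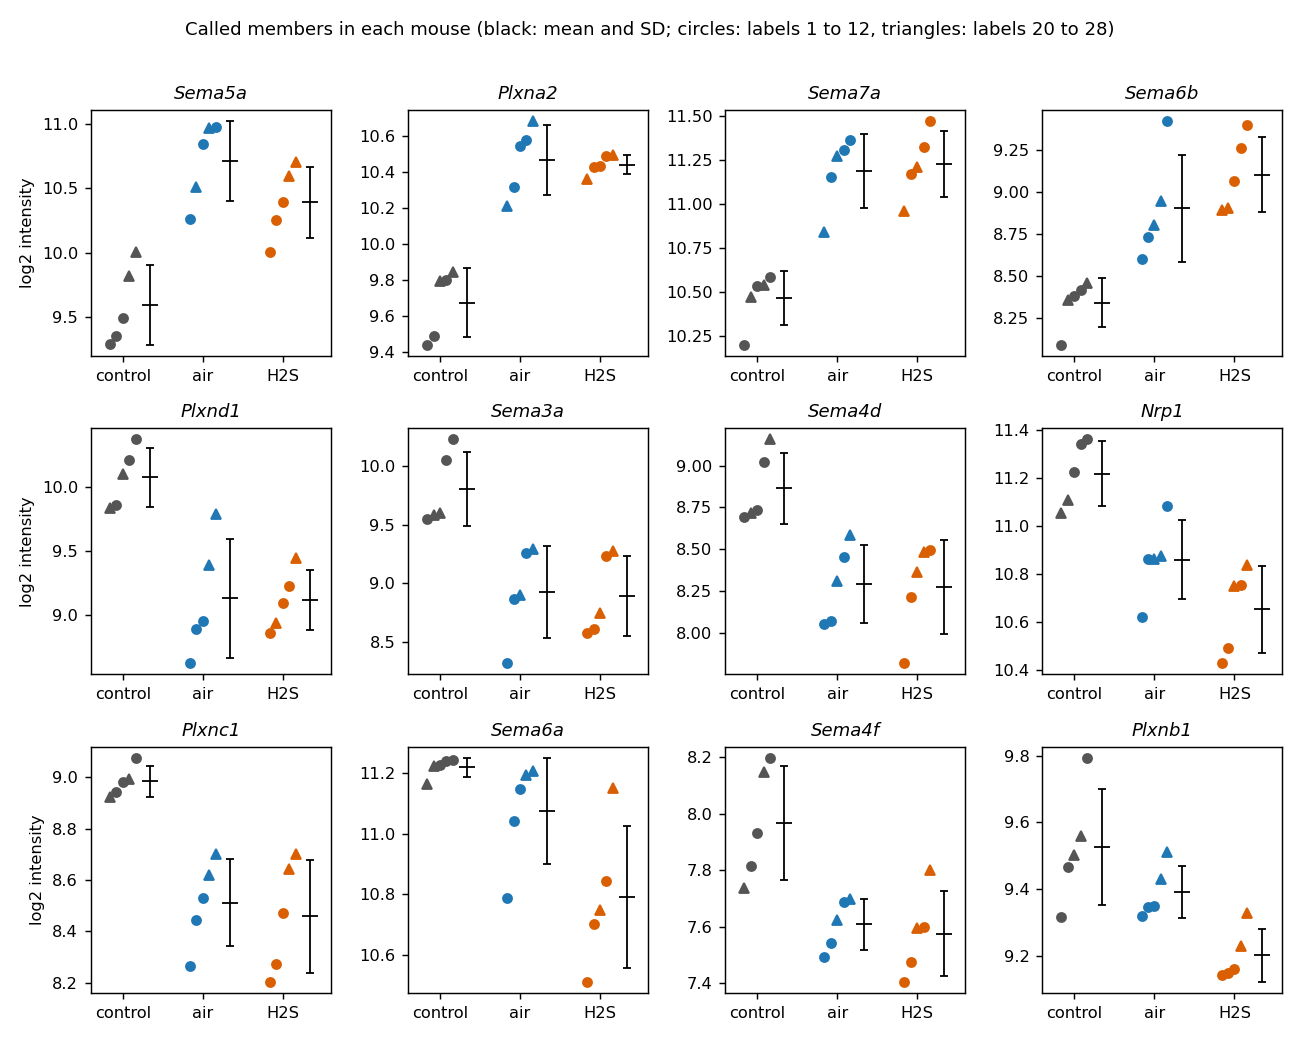
Log2 intensity of the 12 genes called in at least 1 comparison, in each of the 5 mice per group, with group mean and SD in black. Each panel has its own vertical range. The panels of the 4 genes that rose show every ventilated mouse above the controls, while Sema4f and Plxnb1 show an H2S mouse within the control range.

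The 9 plexins moved in both directions. Plxna2, a receptor for class 6 semaphorins and, with neuropilins, for class 3, had intensities of 695, 719, 889, 892 and 922 in control, 1188, 1279, 1497, 1533 and 1649 in air ventilated and 1317, 1378, 1385, 1438 and 1443 in H2S ventilated mice. The groups were far apart from control, and the H2S mice were the tightest. Plxna2 rose with air by 0.79 (SE 0.10, 1.73-fold, adjusted p = 0.00121, limma) and with H2S by 0.77 (SE 0.10, adjusted p = 0.000459), and it was the only plexin that rose.

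Plxna1, Plxna3 and Plxna4, the other A plexins, were not called. Plxna1 ranged from 1679.5 to 2006 in control, from 929 to 1765 in air ventilated and from 1032 to 1600.2 in H2S ventilated mice, at −0.34 (adjusted p = 0.329, limma) and −0.46 (adjusted p = 0.0862). Its H2S mice lay below all controls. Plxna3 and Plxna4 were at −0.07 and −0.17 with air and at −0.22 and −0.23 with H2S.

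Plxnd1, the endothelial receptor for Sema3e that guides sprouting vessels, carried the largest decrease among the plexins. Its intensity was 917, 931, 1098, 1189.5 and 1328 in control, 395, 474, 496, 672 and 888 in air ventilated and 465, 492, 548, 600.1 and 700.0 in H2S ventilated mice. All ventilated mice were below all controls, and the air ventilated group was the widest, with mouse 34_22 close to the controls. Plxnd1 fell with air by 0.95 (SE 0.19, 1.93-fold lower, adjusted p = 0.00953, limma) and with H2S by 0.96 (SE 0.19, 1.95-fold lower, adjusted p = 0.0045).

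Plxnc1 is the receptor of Sema7a and is known from neutrophils, monocytes and dendritic cells. Its intensity was 486, 493, 506, 509 and 539.9 in control, 308, 349, 369.7, 393 and 416 in air ventilated and 295, 309, 355, 400.1 and 416 in H2S ventilated mice. The ventilated mice lay below all controls. Plxnc1 fell with air by 0.47 (SE 0.10, adjusted p = 0.0167, limma) and with H2S by 0.53 (SE 0.10, adjusted p = 0.00478), so that the ligand Sema7a and its receptor stood on opposite sides of control.

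Plxnb1, the receptor of Sema4d, was called with H2S only. Its intensity was 638, 707, 726, 755 and 887 in control, 639.9, 652, 653, 691 and 729.7 in air ventilated and 566, 568, 573, 600.4 and 643 in H2S ventilated mice. The highest H2S mouse passed the lowest control, and the air ventilated mice lay within the control range. Plxnb1 was lower by −0.32 (SE 0.08, adjusted p = 0.023, limma) with H2S and stood at −0.14 (SE 0.08, adjusted p = 0.547) with air. The H2S call was kept in 12 of 15 fits without 1 mouse and lost without control mouse 13_25 or H2S mouse 9_12 or 1_4 (adjusted p up to 0.0559). Fitted to control and H2S mice alone it was lost as well (adjusted p = 0.0609). Plxnb2 and Plxnb3 were not called and lay between −0.12 and −0.02.

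Nrp1, the co-receptor of Sema3a and of VEGF, had intensities of 2129, 2206, 2392, 2598 and 2631 in control, 1572, 1859.6, 1860.2, 1876 and 2168 in air ventilated and 1377, 1441, 1721, 1725 and 1831 in H2S ventilated mice. All H2S mice were below all controls, while 1 air ventilated mouse passed the lowest control. Nrp1 fell by 0.57 (SE 0.10, 1.48-fold lower, adjusted p = 0.00295, limma) with H2S and stood at −0.36 (SE 0.10, adjusted p = 0.0698) with air, where 6 of the other settings called it. Nrp2, the co-receptor of Sema3f and of lymphatic VEGF receptors, was at −0.21 (adjusted p = 0.371) and −0.22 (adjusted p = 0.225).

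The lung epithelium that the labels imply was present, with summed intensities of the 5 alveolar type II markers of 44010.0 to 45505 in control, 43986 to 45990.0 in air ventilated and 44410.0 to 45444 in H2S ventilated mice. Markers of fibroblasts, airway epithelium, mesothelium and platelets had 0 calls in either comparison. The 6 fibroblast markers lay between −0.62 (Tcf21, adjusted p = 0.0598, limma) and 0.14 (Dcn) with air and between −0.50 and 0.17 with H2S, and their part in the values of Sema3a and the other called genes was not tested. With H2S, 1 of 4 lymphatic endothelial (Lyve1) and 1 of 4 alveolar macrophage markers (Marco) rose. Lower with H2S were 2 of 5 smooth muscle and pericyte (Acta2, Pdgfrb), 1 of 5 alveolar type I (Rtkn2) and 1 of 5 alveolar type II markers (Abca3). With air 1 of 4 alveolar macrophage markers (Fabp1) fell. Of all clusters 3.44% were called with air and 7.86% with H2S. In each of these lists the uncalled markers lay on both sides of control.

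The 8 endothelial markers checked summed to intensities of 30276 to 33851 in control, 27324 to 29340 in air ventilated and 27360 to 29607 in H2S ventilated mice, and none was at 0. All control mice lay above all ventilated mice, while the ranges of the ventilated groups overlapped. Of them Kdr and Tek were lower in both comparisons and 6 were not called. The changes of these 6 ran from −0.39 (Emcn) to 0.17 (Vwf) with air and from −0.13 to 0.16 (the same genes) with H2S. Cldn5, Cdh5 and Pecam1, the brightest, were at −0.23 (adjusted p = 0.0804, limma), −0.05 and −0.10 with air and at −0.09, −0.01 and −0.12 with H2S. The part of endothelial content in the values of Plxnd1 and Nrp1 was not tested.

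All 4 B cell markers with a cluster fell in both comparisons. Their sum was 2659.1 to 4497.1 in control, 922.48 to 2470.2 in air ventilated and 860.15 to 1899 in H2S ventilated mice, and none was at 0. None of the 5 T and NK cell markers and none of the 3 monocyte and macrophage markers was called, with monocyte and macrophage sums of 2309.6 to 3066.3, 1934.8 to 2419.1 and 1975.4 to 2854. Of 6 neutrophil markers 1 rose with air and 2 with H2S, with sums of 5392.9 to 10051, 8701.6 to 12384 and 7590.1 to 14830. The part of these cells in the values of Sema4d, Sema4f and Plxnc1 was not tested.

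Some mice stood at the low end of their group for many genes. Air ventilated mouse 11_6 was the lowest of its group for 17 of the 31 genes, and H2S mouse 9_12 for 11. Within groups the SD of the log2 intensity had a median of 0.15 over the genes in control, 0.17 in air ventilated and 0.18 in H2S ventilated mice. The widest spreads were those of Sema3a in control (0.32) and H2S ventilated mice (0.34) and of Plxnd1 in air ventilated mice (0.46).

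**Figure D3:**
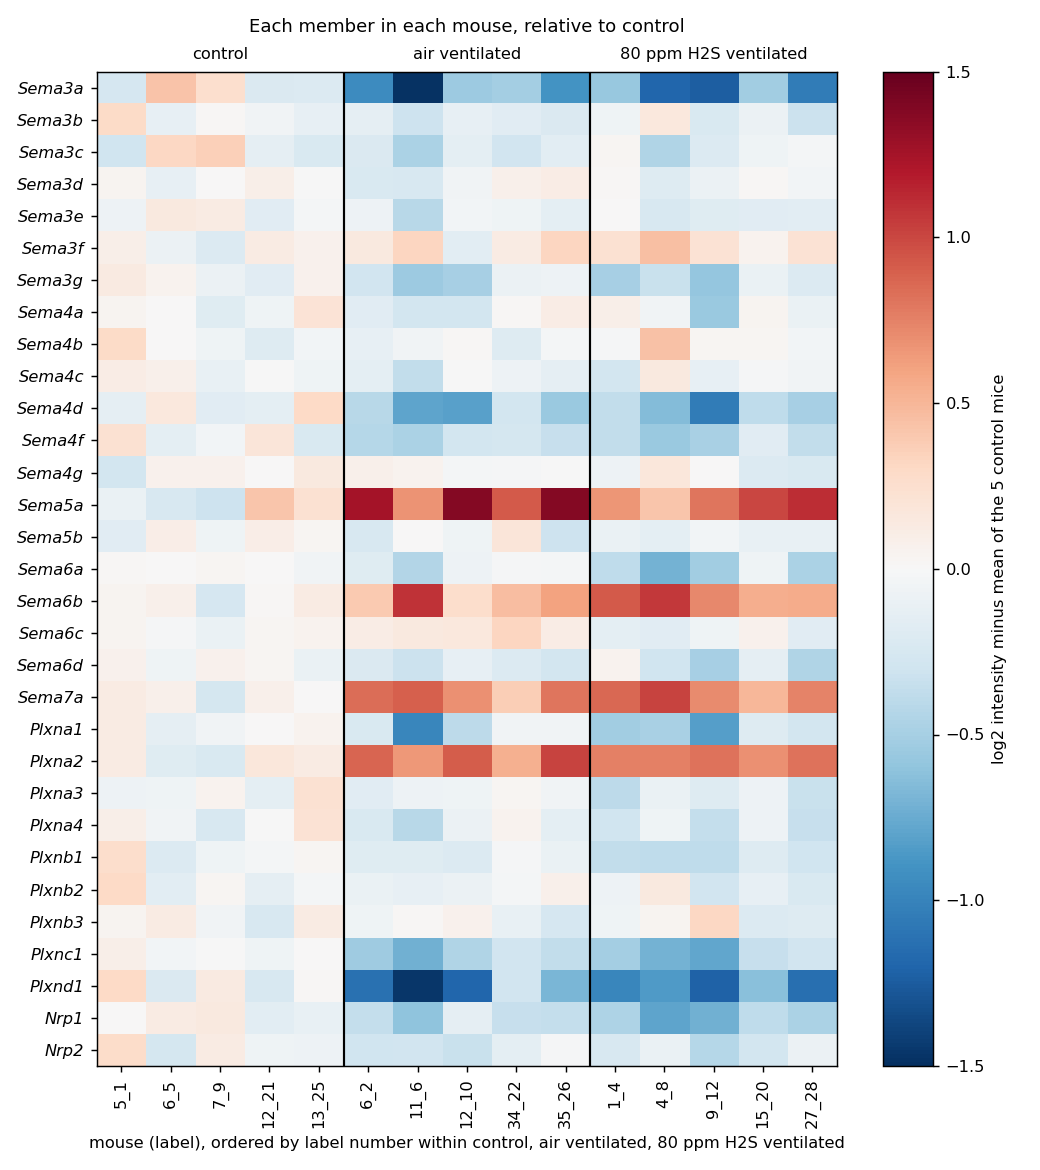
Log2 intensity of each gene in each of the 15 mice, minus the mean of the 5 control mice, from −1.5 (blue) to 1.5 (red), with mice named by label. The bands of Sema5a, Sema6b, Sema7a and Plxna2 are red and those of Sema3a and Plxnd1 blue in all 10 ventilated mice, and the column of air ventilated mouse 11_6 is the bluest of its group.

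The sample labels carry numbers that fall in 2 ranges, 1 to 12 (3 mice per group) and 20 to 28 (2 mice per group), whose meaning the labels do not give. Between the ranges 1775 clusters (6.26%) differed at an adjusted p under 0.05 with limma, among them 0 of the 31 genes. The genes called above were called over all of these mice, so their values within a range are a description and no independent check. Within numbers 1 to 12, 5 of the 8 and 9 of the 12 were called again, and within 20 to 28, with 2 mice per group, none was. At an unadjusted p under 0.05 in that smaller range stood 6 of the 8 and 10 of the 12 genes.

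The sizes differed between the ranges for some genes. With air, Plxnd1 was at −1.33 in the mice numbered 1 to 12 and at −0.38 in those numbered 20 to 28, and with H2S at −1.09 and −0.77. Sema5a was at 1.31 and 0.82 with air and at 0.84 and 0.73 with H2S. Sema3a was at −1.13 and −0.50 with air and at −1.14 and −0.58 with H2S, whereas Sema4d was at −0.62 and −0.49 and at −0.64 and −0.51. The difference between the ranges was not tested for these changes.

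Setting H2S against air ventilation directly asks whether the gas changed the families beyond ventilation. By limma 0 of 31 genes were called, against 0.0776% of all clusters, and 3 (Sema6a, Sema6c and Plxnb1) had an unadjusted p under 0.05, as did 5.68% of all clusters. CyberT, the test named in the study's methods, also called 0 of the 31 genes, against 143 of all 28361 clusters. By CyberT 5 of the genes had an unadjusted p under 0.05, against 5.66% of all clusters. The log2 differences (H2S minus air) lay between −0.32 (Sema5a) and 0.20 (Sema6b), with a median of −0.03 against −0.01 over all clusters. For 29 of the 31 genes the whole 95% interval, not adjusted for the number of genes, lay between −0.5 and 0.5. The exceptions were Sema5a (−0.32, −0.69 to 0.04, adjusted p = 0.928) and Sema6a (−0.28, −0.51 to −0.06, adjusted p = 0.659). Sema6b stayed inside only just, with an upper limit of 0.499956.

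The 4 genes called with H2S only are thus not shown to differ between the gases. Besides Sema6a, the difference was −0.21 for Nrp1 (95% interval −0.42 to 0.01, adjusted p = 0.903, limma), −0.19 for Plxnb1 (−0.36 to −0.01, adjusted p = 0.809) and −0.03 for Sema4f (−0.24 to 0.18, adjusted p = 0.997). The smallest p belonged to Sema6c, a class 6 semaphorin below the median intensity of all clusters. Its intensity was 119, 126, 129, 131 and 132 in control, 137, 137, 141, 143 and 159 in air ventilated and 113, 113, 115, 122 and 133 in H2S ventilated mice. The air ventilated mice lay above all others, and the difference of −0.26 (SE 0.07, −0.41 to −0.12) had an adjusted p of 0.29. Sema6c was the 1 member of 31 whose ventilated groups did not overlap, against 1.2% of all clusters, and it is named here after its values were seen.

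**Figure D4:**
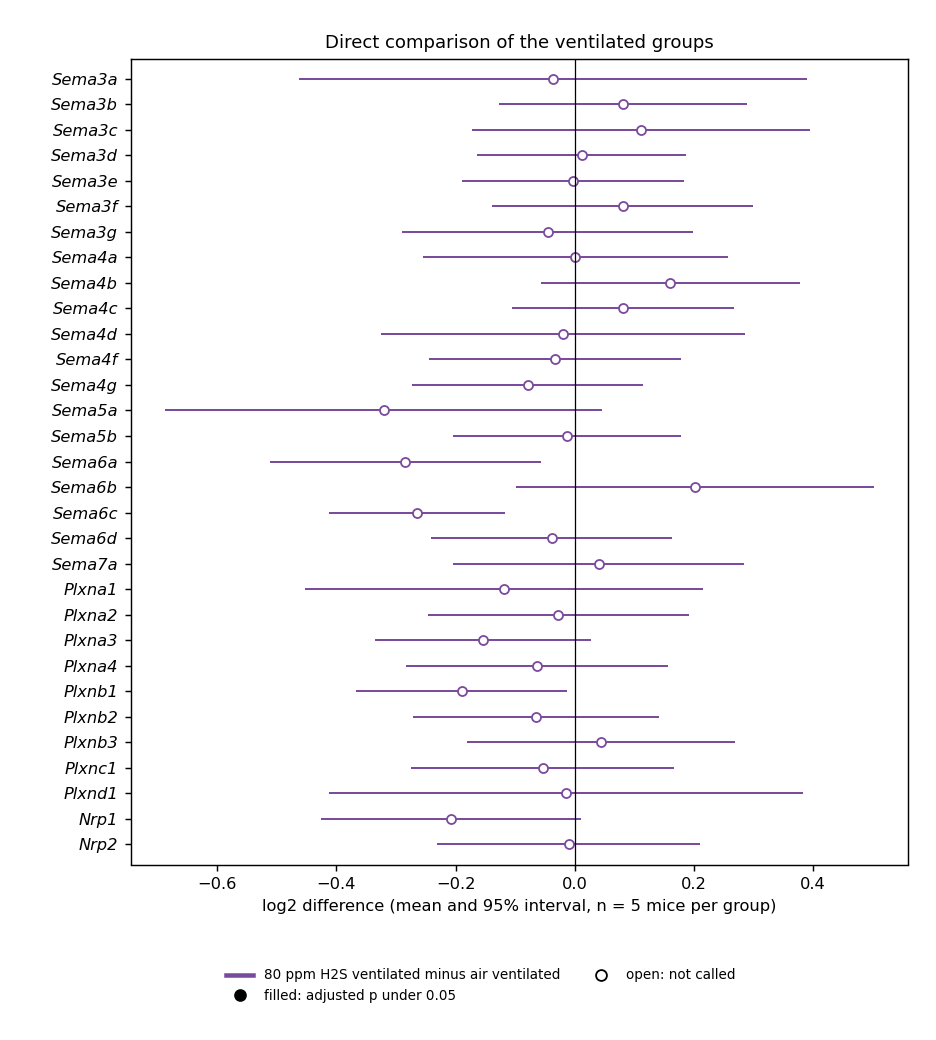
Log2 difference between 80 ppm H2S ventilated and air ventilated mice for each of the 31 genes, with 95% intervals and open points, as 0 genes were called. Most intervals include 0, and those of Sema6a, Sema6c and Plxnb1 lie below it.

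Beyond the families, 58 of 60 listed pathway genes had a cluster of their own: VEGF ligands, partner receptors, GTPases, exchange factors, cytoskeletal effectors and proteases. This list, too, was chosen with earlier results of these data known, so its shares are a description. With air 8 were called (13.8%), against 3.44% of all clusters. Of these 2 were higher and 6 lower, against 1.56% and 1.89%. With H2S 12 were called (20.7%), against 7.86%, with 6 higher and 6 lower, against 3.92% and 3.93%. In the direct comparison 0 were called by limma, against 0.0776%, and 7 stood at an unadjusted p under 0.05, where 5.68% of all clusters did. Pgf, a placental growth factor that binds neuropilin 1 and VEGF receptor 1, rose by 0.60 (SE 0.13, adjusted p = 0.0167, limma) and 0.95 (SE 0.13, adjusted p = 0.000553). Its receptor gene Flt1 rose by 0.52 (adjusted p = 0.0168) with H2S and was at 0.32 (adjusted p = 0.218) with air.

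Kdr, the VEGF receptor 2 gene and also an endothelial marker above, fell with air by 0.58 (SE 0.11, adjusted p = 0.00952, limma) and with H2S by 0.83 (SE 0.11, adjusted p = 0.000553). Cd72, the B cell receptor for Sema4d, fell by 1.12 (SE 0.20, adjusted p = 0.00603) and by 0.88 (SE 0.20, adjusted p = 0.0128). B cell markers fell alongside it, and their part in it was not tested. With H2S Sema4d, by its brighter cluster only, and its receptors Plxnb1 and Cd72 were lower, whereas Plxnb2, which also binds Sema4d, was not called (−0.12, adjusted p = 0.582). With air Plxnb1 was not called.

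Downstream, Dpysl3 and Dpysl2, which encode collapsin response mediator proteins that carry the Sema3a signal to microtubules, fell by 0.71 and 0.29 with air (limma adjusted p = 0.00838 and 0.0391) and by 0.72 and 0.39 with H2S (adjusted p = 0.00406 and 0.00366). The listed genes of this kind split, as Dpysl5 was higher in both comparisons (0.45 and 0.44). Dpysl4 (−0.09 and −0.11) and Crmp1 (−0.01 and 0.10) were not called. These 3 are named after their values were seen. Adam17, a sheddase of membrane proteins, fell by 0.36 (limma adjusted p = 0.0274) and 0.38 (adjusted p = 0.0118). Called higher with H2S but not with air were Rnd3 (0.60, adjusted p = 0.00301), an atypical small GTPase, Limk1 (0.53, adjusted p = 0.0201), the kinase of cofilin, and Furin (0.31, adjusted p = 0.0165), which cuts class 3 semaphorins. With air Rnd3 was at 0.32, Limk1 at 0.10 and Furin at 0.27 (adjusted p = 0.146, 0.865 and 0.0571, limma). None of them was called between the gases, with adjusted p of 0.682, 0.451 and 0.997.

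Of the other called pathway genes, named after their values were seen, Dpysl5 was higher in both comparisons (0.45 and 0.44). Vegfa was called lower with air only (−0.29) and stood at −0.18 with H2S (adjusted p = 0.174, limma). Nrcam was called lower with H2S only (−0.51), yet stood at −0.49 with air (adjusted p = 0.0998) and at −0.02 between the gases. None of the 7 exchange factors and regulators was called, and of the 11 small GTPases only Rnd3.

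**Figure D5:**
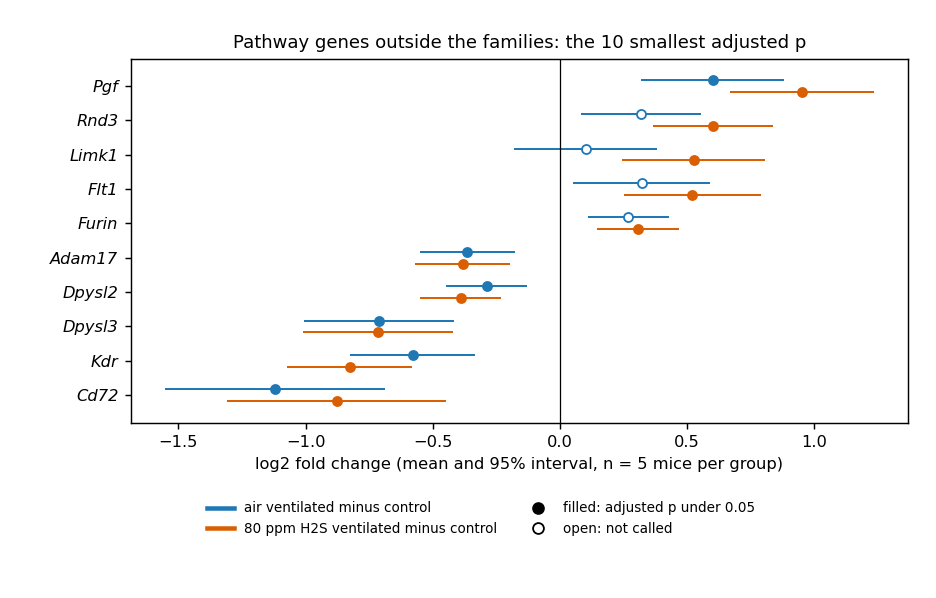
Log2 fold change against control, with 95% intervals, of the 10 pathway genes with the smallest adjusted p, for air ventilated (blue) and 80 ppm H2S ventilated (orange) mice, with filled points for adjusted p under 0.05. Pgf lies farthest to the right and Cd72 farthest to the left, followed by Dpysl3 with air and Kdr with H2S. Limk1, Rnd3, Flt1 and Furin are filled for H2S only.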

How the data were processed

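Total RNA of 15 lung lobes was hybridised to Affymetrix whole-transcript arrays, 1 array per mouse. The deposited values are linear intensities made by the authors with anti-genomic GC background subtraction, quantile normalization and RMA summarization, for main and unmapped transcripts. The rule took the values as log2, and the linear intensities were transformed to log2 here. The table had 28361 clusters in 15 columns (0 left unused), of which 21780 had 1 symbol, 1617 several and 4964 were unnamed here, by the platform table given with the data. Groups come from the sample labels.

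The 3 groups entered 1 linear model without covariates (limma 3.58.1, run in R 4.3.3, with moderated variances), on all clusters, with Benjamini-Hochberg adjustment over all of them. Intervals are 95% intervals of that fit. The number of arrays limits the precision. In simulated data 100 clusters were changed by a fold of 2 and another 100 by a fold of 1.5. At a fold of 2 limma recovered 95 with air and 96 with H2S, and at a fold of 1.5 it recovered 59 and 68. There were 9 and 10 false calls among the unchanged clusters. More clusters were called in the real data (977 with air and 2228 with H2S), so recovery there can differ.

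The 31 members, the pathway list and the marker lists (65 of 69 markers had a cluster) were chosen with earlier results of these data known. All members are reported. Values by mouse are given for members at adjusted p under 0.05 in at least 1 comparison, and pathway genes are named by the 10 smallest adjusted p. Alternatives were CyberT (confidence 15), the compared groups alone, array weights, a variance trend, a pseudocount of 32, recentring, requantiling, brighter clusters only, other clusters of a gene, blocks, number ranges, the study's thresholds and leaving out each mouse.

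Label numbers in the same run of 4 were checked as pairs. Over 13 pairs the mean correlation of deviations from the group means was 0.18, from −0.18 to 0.36. Over 62 pairs from different runs it was lower, at −0.04, from −0.50 to 0.49. The labels do not state a pairing, so the main fit has none, and the runs entered an alternative fit as a block. Promoters are RefSeq sequences of build GRCm38.p6, searched with Python 3.11.15 over 250 bases before each start. Python, pandas 2.3.3 and matplotlib 3.10.9 drew the plots. Mice that breathed H2S spontaneously were not analysed here.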

Additional observations from a re-analysis of the deposited data

Results flagged for a closer look

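The gap of a mouse to its nearest neighbour was divided by the range of its group, both on the log2 scale. Over the 93 sets of 5 mice (31 genes in 3 groups), 6 held a mouse above 0.71, the Dixon critical value for 5. Chance gives about 1 in 20. The intensities given are linear. Sema4b in H2S ventilated mouse 4_8 was the most distant, with 603 against 434 to 455 in the other 4 mice and a gap of 0.8592 of the range. Sema6a in control mouse 13_25 (2298 against 2393 to 2426, 0.7458) and Sema6b in control mouse 7_9 (273 against 329 to 353, 0.7236) were low in genes called above. Sema6c in air ventilated mouse 34_22 was high, at 159 against 137 to 143 (0.7294). Sema3e in air ventilated mouse 11_6 was low, at 699.97 against 843 to 906 (0.7199). Sema4a in H2S ventilated mouse 9_12 was low, at 465 against 640.2 to 727 (0.7162).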

How the results depend on the processing

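No change of a called gene reversed its sign under any alternative run. With air, 8 genes were called, and 7 to 10 under the alternatives other than the following. The count was 5 in mice numbered 1 to 12 alone, 0 in mice numbered 20 to 28 alone (2 per group) and 4 at the study's thresholds. Leaving out 1 mouse gave 5 to 8, with 5 without control mouse 7_9, control mouse 6_5, or air ventilated mouse 11_6, 35_26 or 6_2. With H2S, 12 genes were called, 10 in mice numbered 1 to 12, 0 in mice 20 to 28 and 4 at the study's thresholds, 9 to 13 without 1 mouse (9 without H2S mouse 9_12) and 11 to 14 otherwise. The direct comparison gave 0 throughout. With runs of 4 label numbers as a replicate block, 8, 13 and 0 genes were called, and Sema3a with air lost its call (adjusted p = 0.0535, limma). With only the 2 groups compared in the fit, Sema6b with air (adjusted p = 0.0595) and Sema4f and Plxnb1 with H2S (0.0594 and 0.0609) lost theirs.

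Sema5a, Sema7a, Plxna2, Plxnc1 and Plxnd1 kept their calls in all 15 fits without 1 mouse in both comparisons, as did Sema3a, Sema6b and Nrp1 with H2S. With H2S the calls of Sema4f (11 of 15), Plxnb1 (12), Sema4d (14) and Sema6a (14) were lost in some. The mean of both Sema4d clusters was at −0.31 with air (adjusted p = 0.0537). The cause of these shifts was not tested. With 5 arrays per group, changes of a fold of 1.5 can be missed.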
